A study of Mus musculus with 53 samples.

Results

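The loci of 2 mouse genes, Gata6 and Gata4, were followed through all 35 CUT&RUN peak lists of the series. Every peak that shared at least 1 base with a gene body of the mm10 genome or with the 150 kb on either side of it was taken, which gave 796 of the 1997019 deposited peaks, 502 around Gata6 and 294 around Gata4. Gata6 (ENSMUSG00000005836) lies on the plus strand at chr18:11052064-11085635, and its window spans 333572 bases. Gata4 (ENSMUSG00000021944) lies on the minus strand at chr14:63198922-63271692, and its window spans 372771 bases. Positions are given as distance from the annotated start site, negative upstream and positive in the direction of transcription.

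GATA6 and GATA4 are zinc finger transcription factors that bind DNA at GATA motifs. GATA6 is needed to form the primitive endoderm, the extra-embryonic layer of the blastocyst that gives rise to the yolk sac endoderm, and GATA4 follows it in the same lineage. SOX2 is a high mobility group factor that maintains the epiblast and pluripotent cells. H3K4me1 marks enhancers whether or not they are active, and H3K27ac marks active enhancers and promoters.

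The cells came from SGGC embryonic stem cells, a derivative of the E14JU line in which the endogenous SOX2 is fused to GFP and the endogenous GATA6 to mCherry, so every group carries both tagged alleles and Gata6 itself is the edited gene. Clones B9 and B12 of this line were cultured as naive cells in 2iLIF (the MEK inhibitor PD0325901, the GSK3 inhibitor CHIR99021 and LIF) or in NACL (Activin A, CHIR99021 and LIF), or as naive extra-embryonic endoderm (nEnd) in RACL medium. KnockOut Serum Replacement (KOSR) cultures were sorted into SOX2+ cells and cells double positive (DP) for SOX2 and GATA6, and all KOSR libraries are labelled clone B12. SOX2 was profiled in 2 libraries of 2iLIF, 2 of NACL, 3 of SOX2+ and 3 of DP cells, and GATA6 in 3 of DP and 2 of nEnd cells. Each histone mark was profiled in 2 libraries per population but 1 in DP cells, where no replicate check was possible, and 1 further KOSR library per mark carried a title and a source name that give different populations, so those 2 were kept apart. The KOSR libraries belong to experiments A, A1 and B; the DP GATA6 library of experiment A bears a tag in its title that the labels do not explain. Other libraries of a pair differ by clone, except that both nEnd H3K4me1 libraries are B9, and the labels do not say that replicates came from separate cultures, so that p-values measure the spread between these libraries.

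The lists differed in size, from 1378 to 29623 peaks for SOX2, 1391 to 32510 for GATA6, 13514 to 401853 for H3K27ac and 18627 to 130749 for H3K4me1. Transcription factor peaks were therefore counted per 10000 peaks of the library, and histone marks were expressed as cover, the percent of the window under peaks divided by the percent of the genome under peaks. One pattern touches every Gata4 value. On chromosome 14 from 45 Mb to its end, a boundary chosen after the values were seen, the 25 libraries of clone B12 held 0.385% to 1.59% of their peaks and the 10 of clone B9 held 2.38% to 3.01%, without overlap. Before 45 Mb the shares were 0.935% to 1.64% and 1.37% to 1.67%, and on chromosome 18, which holds Gata6, 3.29% to 4.21% and 3.14% to 4.12%. Gata4 lies inside the sparse stretch, and among the 404 GATA6 regions shared by the nEnd clones there the peak height in B12 was 0.597 times that in B9 at the median, against 0.861 over all 19749 shared regions. The cause was not tested. All KOSR libraries are B12, so values within clone B12 are given beside their tests against other populations; for H3K4me1 the nEnd libraries are all B9, and clone and population cannot be told apart between them and KOSR cells.

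**Figure D1:**
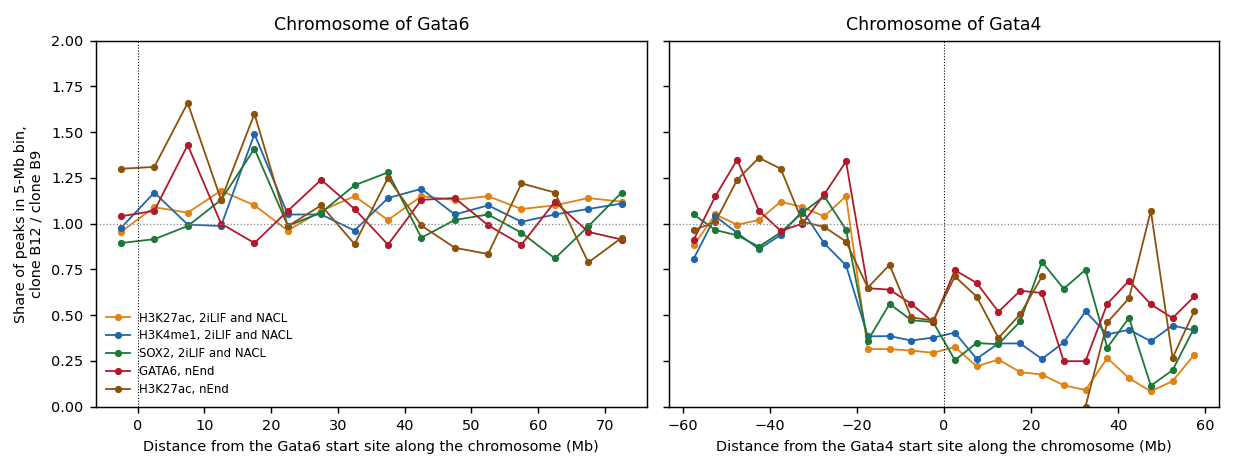
Share of a library's peaks in bins of 5 Mb, clone B12 divided by clone B9, against the distance of the bin from the start site of Gata6 (left) or Gata4 (right); lines are antibodies and populations with libraries of both clones, and the dotted horizontal line is equality. For H3K27ac in 2iLIF and NACL the bins before and after the start site are at 0.955 and 1.09 for Gata6 and at 0.294 and 0.325 for Gata4, and for GATA6 in nEnd they are at 0.462 and 0.745 for Gata4.

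The populations were first compared with marker genes. H3K27ac lay within 1 kb of the start site of 10 and 11 of 12 primitive endoderm markers in the nEnd libraries, Dab2 being the marker without it in both, and of 3 and 4 of 8 naive markers, with none at Sox2, Nanog, Esrrb or Prdm14. In SOX2+ cells 0 of 12 endoderm and 5 and 6 of 8 naive markers had it, and in the DP library 3 of 12 and 6 of 8. The 2iLIF libraries had it at 2 and 4 of the 12 and at 7 of the 8. The NACL libraries had it at 7 and 10 of the 12 endoderm markers, at 6 and 7 of the 8 naive ones and at 5 of 6 trophoblast markers. Trophoblast markers had it at 1 of 6 in both nEnd libraries and at 0 of 6 in the DP and SOX2+ libraries. In nEnd, DP and SOX2+ cells definitive endoderm and mesoderm markers had it at 0 of 5 and 2-cell-like markers at 0 of 2. In NACL these were at 3 and 4 of 5 and at 1 of 2. In 2iLIF they were at 0 and 2 of 5 and at 0 of 2, and trophoblast markers at 1 and 2 of 6.

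GATA6 bound its own locus in nEnd cells at many places. The B9 library held 17 peaks in the Gata6 window and the B12 library 30, or 7.02 and 9.23 per 10000, and the cover of the window by GATA6 peaks ranked at the 98.3rd and 99.6th percentile of 21911 protein-coding gene windows. After merging the SOX2 and GATA6 peaks of the assigned libraries, 33 regions remained, of which 17 had GATA6 in both nEnd libraries and 13 in 1 of them. Of the 17, 12 lay upstream of the gene, 3 in the gene and 2 beyond it, and 3 lay within 1 kb of the start site. The upstream regions fall within or beyond 1010001N08Rik, a non-coding transcript that starts 0.503 kb inside Gata6 on the other strand and runs away from it.

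The tallest GATA6 peaks at Gata6 were far upstream of the gene. At -42.5 kb (chr18:11009260-11009834) the maximum signal was 146 in B9 and 161 in B12, rank 458 of 24223 and rank 241 of 32510 peaks. At -104 kb (chr18:10947754-10949046) it was 135 and 102, at -131 kb (chr18:10920504-10921089) it was 98 and 80, and at -45.5 kb (chr18:11006287-11006935) it was 92 and 111. All 8 values stood at or above the 91.7th percentile of their library. The 3 regions at the start site were lower. The region just upstream, at -0.42 kb (chr18:11051235-11052054), reached 48 and 43, and those over exons at 0.403 and 1.09 kb reached 30 and 27 and 51 and 53, which put them between the 44.8th and 84.3rd percentiles. A further region in an intron at 26.2 kb reached 54 and 59.

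In DP cells GATA6 was found at a subset of these places, 5 of its 9 regions lying between -47.6 and -42.5 kb. The lists held 9 peaks of 8316 in experiment A, 3 of 3821 in A1 and 1 of 1391 in B, or 10.8, 7.85 and 7.19 per 10000. The level per 10000 peaks overlapped with that of nEnd, with a mean of 8.62 ± 1.94 (SD, n = 3) against 8.12 ± 1.56 (n = 2) and a difference of 0.498 (exact permutation test over 10 splits, two-sided p = 0.800, the smallest possible being 0.200). With 50 kb in place of 150 kb on each side of the gene, the nEnd mean was 4.68 and every DP library lay above both nEnd libraries, a difference of 3.94 (exact permutation p = 0.200, the smallest possible). The share of gene windows with this separation was not computed at 50 kb. At 150 kb it was 9.30% of 19749, Gata6 not among them. Over the 150 kb window the sign of the difference depended on single libraries: without the DP library of experiment A the difference was -0.603, and without nEnd B9, which leaves clone B12 alone, it was -0.607. With equal numbers of the strongest peaks it was -10.8 (exact permutation p = 0.400). As a share of the peaks within 20 Mb of the gene, an alternative chosen after the values were seen, the DP libraries were at 947, 750 and 500 per 10000 and the nEnd libraries at 950 and 1145, so that every DP library lay below both, the nearest by little (exact permutation p = 0.200, the smallest possible). For this measure too no share over gene windows was computed.

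The merged regions tell where. GATA6 was found in at least 1 DP library at 9 regions of the Gata6 window, and 7 of those had it in both nEnd libraries, where 46.3% of all 8703 such DP regions did. Seen from nEnd, 7 of the 17 regions had GATA6 in a DP library, against 20.4% of 19725 nEnd regions in the genome. In at least 2 DP libraries 3 of the 17 had it, against 11.2%. The region at -47.6 kb (chr18:11004082-11004884) was found in all 3 DP libraries, with a maximum of 17 in A, 9 in A1 and 4 in B. Those at -45.5 and -42.5 kb were found in A and A1, with 17 and 22 at the former and 20 and 18 at the latter. The other 6 came from experiment A alone: at -46.7 and -46.1 kb with maxima of 9 and 13, at the start site (-0.42 and 0.403 kb) with 12 and 6, and at 23.4 and 26.2 kb with 6 and 16. The peak of experiment B had a maximum at the 0.863rd percentile of its list and ranked 1309 of 1391. The 5 regions from -147 to -92.7 kb with GATA6 in both nEnd libraries had no GATA6 peak in any DP library.

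**Figure D2:**
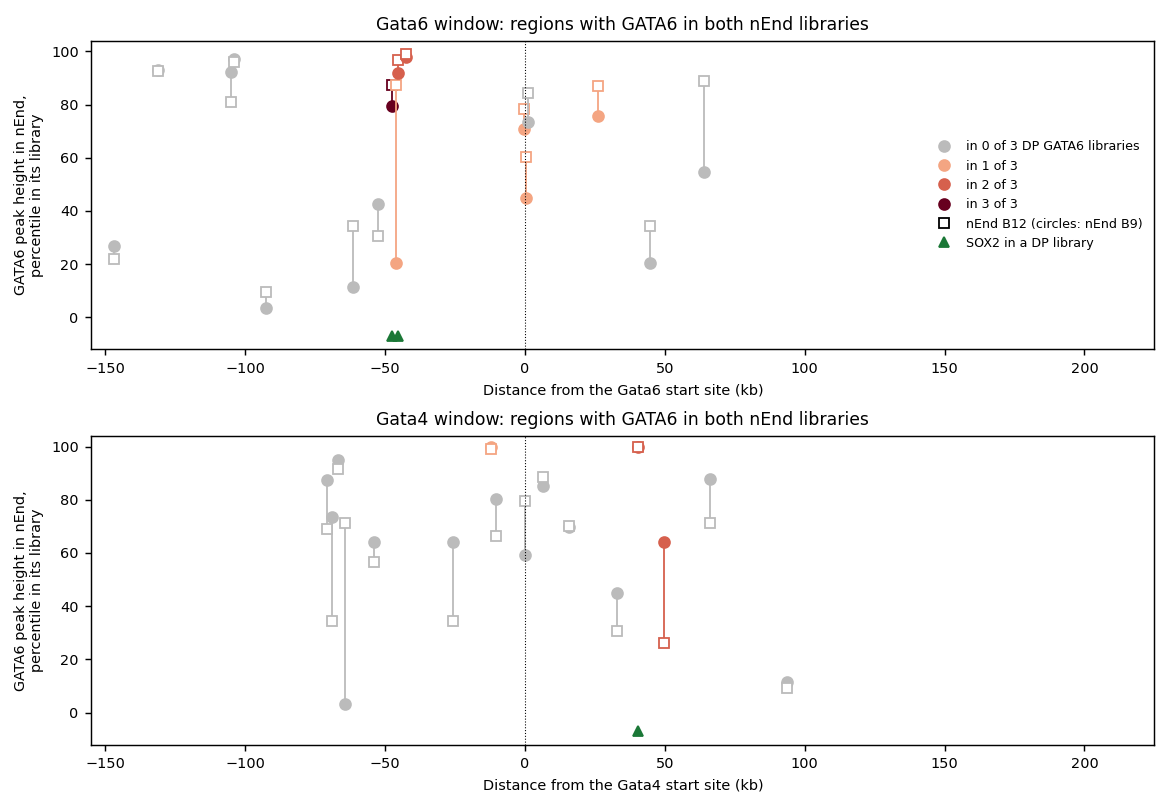
Regions with GATA6 in both nEnd libraries, by distance from the start site of Gata6 (top, 17 regions) and Gata4 (bottom, 16 regions); the vertical axis is the percentile of the peak's maximum signal within its nEnd library (circles B9, squares B12), lines join the 2 values of a region, the color gives the number of DP GATA6 libraries with a peak and green triangles mark regions with SOX2 in a DP library. At Gata6, 4 of the 7 regions with a DP peak lie between -47.6 and -42.5 kb, and at Gata4 the tallest region of each nEnd library, at 40.3 kb, also had a DP peak.

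SOX2 had a peak at 6 regions of the Gata6 window, and at 3 of them in more than 1 library, 2 with GATA6 and 1 without. The first was the region at -47.6 kb, where SOX2 was found in the DP libraries of experiments A and A1, with maxima of 11 and 19 (the 64.1st and 70.5th percentile of their lists), and in no library from 2iLIF, from NACL or of SOX2+ cells. It is the 1 region of the window with both factors in at least 2 of 3 DP libraries. In the genome 992 of 72577 regions met that rule (1.37%), and of the 3457 with GATA6 in at least 2 DP libraries 28.7% did, against 1 of 3 here. A second region, at -45.5 kb, had SOX2 in DP experiment A1 with a maximum of 6, near the bottom of the list, and in NACL B9 with 11. The region without GATA6, at -74.4 kb (chr18:10977340-10978031), had SOX2 in 2iLIF B9, NACL B9, all 3 SOX2+ libraries and DP experiments A and A1, with maxima between 9 and 17, and no GATA6 peak in any library.

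Per 10000 peaks SOX2 reached 4.12 in DP experiment A (2 of 4859 peaks), 5.64 in A1 (3 of 5320) and 0 in B, whose 1378 peaks allow a value of up to 21.8 (3 peaks). In the other populations it was 0.759 in 2iLIF B9, 1.35 in NACL B9, 0 in both B12 counterparts (the source name of the NACL one lists IgG beside SOX2, and its group was taken from the title), and 1.19, 0.485 and 0.951 in SOX2+ cells. Experiments A and A1 lay above all 7 others, and experiment B at 0 with the lowest. The DP mean of 3.25 ± 2.92 (SD, n = 3) did not differ from that of the 7 others, 0.676 ± 0.540, beyond the spread (difference 2.58, exact permutation test over 120 splits, two-sided p = 0.133, 0.336 after Benjamini-Hochberg adjustment over the 20614 gene windows tested). Every DP library lay above all others in 7.04% of those windows, and neither Gata6 nor Gata4 was among them. Without the NACL B12 library the difference was 2.46 at Gata6, and within clone B12 it was 2.73 (exact permutation p = 0.214). It was 1.38 without DP experiment A1 and 4.20 without B, and 0 with equal numbers of the strongest peaks. Against SOX2+ cells alone it was 2.38 (exact p = 0.400 over 20 splits, the smallest possible being 0.100). The 95% Clopper-Pearson intervals of the 2 higher values ran from 0.499 to 14.9 and from 1.16 to 16.5, and they cover counting error only.

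**Figure D3:**
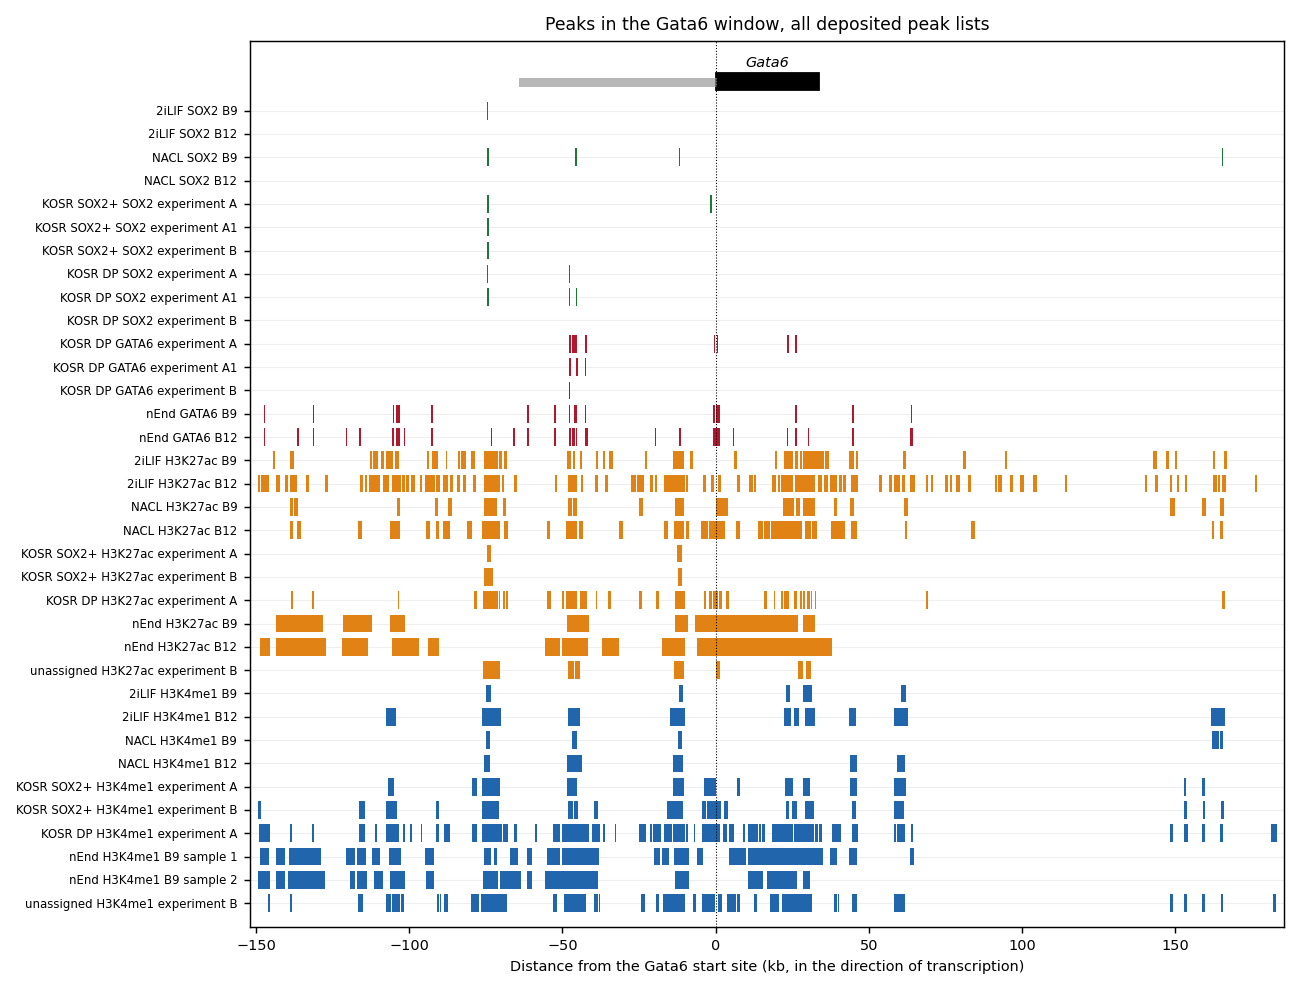
All peaks in the Gata6 window, 1 row for each of 35 libraries (green SOX2, red GATA6, orange H3K27ac, blue H3K4me1), against distance from the start site in kb; peaks narrower than 0.5 kb are drawn 0.5 kb wide, the black bar is Gata6 and the grey bar 1010001N08Rik. The rows named unassigned are the 2 KOSR libraries whose labels differ. Of the 9 regions with GATA6 in a DP library, 5 lie between -47.6 and -42.5 kb, within a domain that both nEnd H3K27ac libraries share.

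H3K27ac cover at Gata6, relative to the genome, was higher in both nEnd libraries than in all naive ones. It covered 23.6% and 33.2% of the window in nEnd B9 and B12, and 91.4% and 100% of the gene body, in domains of up to 44112 bases. In 2iLIF it covered 17.1% and 34.4% of the window, but those lists covered 13.2% and 21.6% of the whole genome against 5.03% and 6.43% in nEnd. Relative to the genome, cover was 4.68 and 5.17 in nEnd, 1.30 and 1.59 in 2iLIF and 0.718 and 1.30 in NACL. Both nEnd values lay above all 4 naive values, as they did in 48.1% of 21465 gene windows, with a difference of 3.70 that stands at the 91.5th percentile of the windows (exact permutation test over 15 splits, two-sided p = 0.133, the smallest possible). Within clone B9 the difference was 3.67 and within B12 it was 3.72. The ratio cannot exceed 100 divided by the percent of the genome covered, a limit that for 2iLIF B12 lies below both nEnd values. That library could therefore not have reached them, and in percent of the window it lay above both.

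The H3K4me1 difference at Gata6 ranked higher among gene windows. H3K4me1 cover was 5.06 and 8.87 in the 2 nEnd libraries, 0.795 and 1.44 in 2iLIF and 0.692 and 1.54 in NACL, a difference of 5.85 at the 99.8th percentile of 20626 windows (exact permutation test, p = 0.133, the smallest possible). Both nEnd values lay above all naive ones, which held for 24.2% of windows. Within clone B9 the difference was 6.22.

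In the sorted KOSR cells H3K4me1 and H3K27ac at Gata6 took different places in this order. H3K4me1 cover was 2.26 and 2.55 in SOX2+ cells, above all 4 naive values and below both nEnd values, and 4.14 in the DP library, also below both. The share of gene windows with this order was not computed. Among gene windows the SOX2+ libraries stood at the 67.0th and 70.9th percentile and the naive ones between the 34.9th and 55.2nd. In percent of the window, SOX2+ experiment A (10.2%) lay below 2iLIF B12 (10.9%). H3K27ac cover was 0.943 and 1.21 in SOX2+ cells, within the naive range, and 4.75 in the DP library, within the nEnd range. The DP list covered 2.35% of the genome. In percent of the window it was at 11.2%, below nEnd (23.6% and 33.2%) and not above any naive library. It covered 29.7% of the gene body. The H3K27ac peaks of SOX2+ cells were 2 in each library, at about -74 and -12 kb, while the DP list, of 76260 peaks against 13514 and 14722, held 36. DP cells have 1 library of each mark, so that these steps have no replicate check. At the start site itself both SOX2+ libraries had H3K4me1 within 1 kb and no H3K27ac, the DP library had both marks, and both nEnd libraries had H3K27ac and no H3K4me1. Of the naive libraries, 2iLIF B12, NACL B9 and NACL B12 also had H3K27ac there, and none had H3K4me1. In the SOX2+ libraries H3K4me1 lay within 1 kb of the start of 9 and 10 of the 12 primitive endoderm markers, 4 and 6 of the 8 naive, 4 of the 6 trophoblast and 3 of the 5 definitive endoderm and mesoderm markers, and in the DP library of 10, 6, 5 and 5 of them. Of the 12 endoderm markers the nEnd libraries had H3K4me1 at 2 and 7, the 2iLIF libraries at 1 and 6 and the NACL libraries at 1 and 2.

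**Figure D4:**
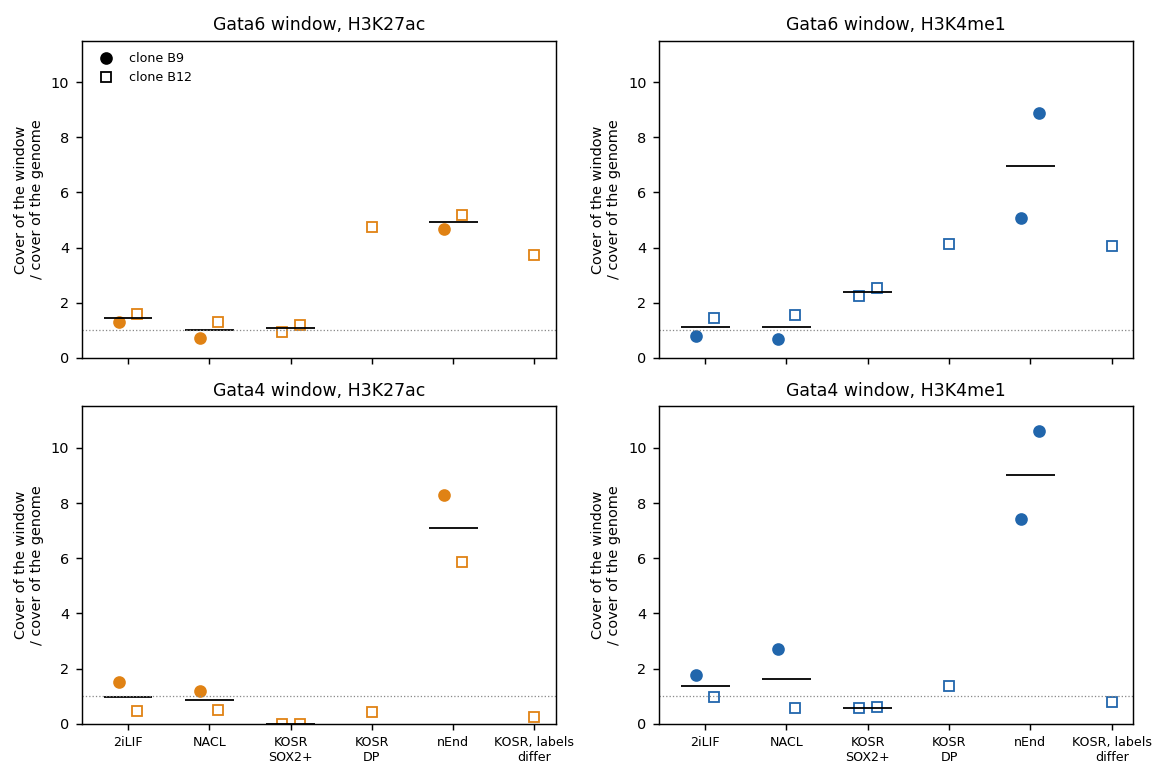
Cover of the Gata6 (top) and Gata4 (bottom) windows by H3K27ac (left) and H3K4me1 (right) divided by the cover of the genome, for each library (filled circles clone B9, open squares clone B12); horizontal bars are means of 2 libraries and the dotted line is the genome level. At Gata6 the DP library reaches 4.75 for H3K27ac in this ratio, beside nEnd, while at Gata4 it reaches 0.436. In percent of the Gata6 window it is at 11.2%, against 23.6% and 33.2% in nEnd.

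Marks were then read at the regions where GATA6 was found in nEnd cells, to ask which of them carried a mark in the other populations. Of the 17 such regions at Gata6, 6 had H3K4me1 in both SOX2+ libraries, against 24.4% of 19725 regions in the genome, and 15 had it in the DP library, against 57.3%. The count of 6 was 10 without the SOX2+ H3K4me1 library of experiment A. Without nEnd GATA6 B9 it was 11, but of the 30 regions with GATA6 in nEnd B12. It was 2 with the stronger 50% of peaks and 0 with equal numbers of peaks, each from fewer nEnd GATA6 regions. In both nEnd libraries 12 of the 17 had H3K4me1, against 52.6%. The 6 were at -105 kb, at -47.6, -46.1 and -45.5 kb, at -0.42 kb and at 44.7 kb. Of the 7 that GATA6 also held in DP cells, 4 were among these 6, and of the 10 without GATA6 in DP cells 2 were, where the genome had 38.1% and 20.8%. H3K27ac was found at 0 of the 17 in SOX2+ cells (7.25% in the genome), at 10 in the DP library (30.5%) and at 11 in both nEnd libraries (58.5%). Of the 17, 8 had H3K27ac in both 2iLIF libraries (43.7% in the genome), and 7 had no H3K4me1 in any 2iLIF, NACL or SOX2+ library (52.9%). The lists differ in size, and a mark that was absent from a region and one that was missed there cannot be told apart.

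The cluster around -45 kb brings these readouts together. The 4 regions from -47.6 to -42.5 kb with GATA6 in both nEnd libraries lie in an H3K27ac domain of nEnd cells (chr18:11002013-11010728, 8716 bases) that the DP library covered by 72.0% with H3K27ac and by 99.8% with H3K4me1. SOX2+ cells covered it by 32.8% with H3K4me1, on average over 2 libraries, and had no H3K27ac there. Naive cells had both marks in it, covering for example 36.8% with H3K27ac in 2iLIF and 36.1% with H3K4me1 in NACL. By contrast the domains at -135 kb (16438 bases) and -117 kb (9978 bases), where the maximum signal of nEnd H3K27ac stood between the 94.7th and 99.1st percentiles of its lists, were covered by 7.41% and 0% with H3K27ac in the DP library.

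At Gata4 GATA6 also bound widely in nEnd cells. The B9 library held 21 peaks in the window and B12 held 22, or 8.67 and 6.77 per 10000, and cover ranked at the 99.4th and 95.2nd percentile of gene windows. Of 28 merged SOX2 or GATA6 regions, 16 had GATA6 in both nEnd libraries, 7 of them in the gene, 8 upstream and 1 downstream. The peaks of the intron at 40.3 kb (chr14:63230681-63232191) were the tallest, with a maximum of 301 in B9 (rank 4 of 24223) and 208 in B12 (rank 66 of 32510). The intergenic region at -12.1 kb (chr14:63283343-63284197) followed with 272 and 160, rank 13 and 247. The region over the start site (chr14:63271509-63271882) reached 38 and 45. Upstream, 4 regions from -64.5 to -70.9 kb lie in a further domain within the non-coding gene Gm5463, the tallest of them at -66.9 kb with 111 and 75.

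DP cells had GATA6 at 3 of these 16 regions, against 11.9% of the 404 nEnd regions on chromosome 14 from 45 Mb and 20.4% in the genome. The intron region at 40.3 kb had it in experiments A and A1, with maxima of 14 and 23, and so did the intron region at 49.8 kb (chr14:63221717-63222104), with 10 and 7. The region at -12.1 kb had it in A1, with 7. All 3 regions with GATA6 in DP cells had it in both nEnd libraries, as did 48 of 76 such regions (63.2%) on chromosome 14 from 45 Mb. Per 10000 peaks the 3 DP libraries gave 3.61, 7.85 and 0, the last with a limit of 21.6, and the mean of 3.82 ± 3.93 (SD, n = 3) was 3.90 below the nEnd mean of 7.72 ± 1.35 (n = 2, exact permutation p = 0.400 over 10 splits). The difference was -1.22 with 50 kb on each side, -7.54 with the stronger 50% of peaks and -15.6 with equal numbers of peaks (exact permutation p = 0.800, 0.200 and 0.200, the last 2 the smallest possible). Every DP library lay below both nEnd libraries in 40.2% of gene windows, and Gata4 was not among them. Within clone B12 the means were 3.82 and 6.77. Relative to the peaks within 20 Mb, which lie mostly in the sparse stretch, the order turned, with 655 per 10000 in DP and 532 in nEnd cells (exact permutation p = 0.800).

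The sequences of 4 Gata4 regions are shown because they carry the binding described here: the 3 that GATA6 held in DP and nEnd cells, and, of 2 regions with GATA6 in nEnd cells and SOX2 in naive cells, the 1 with SOX2 in more than 1 naive library. Each sequence is the plus strand of GRCm38 (the RefSeq assembly), 200 bases centred on the maximum of the nEnd B9 peak, with matches on either strand in capitals: AGATAA or AGATAG or TGATAA or TGATAG for GATA motifs, and CATTGT or CTTTGT for SOX motifs.
Gata4 at 49.8 kb, chr14:63221788-63221987: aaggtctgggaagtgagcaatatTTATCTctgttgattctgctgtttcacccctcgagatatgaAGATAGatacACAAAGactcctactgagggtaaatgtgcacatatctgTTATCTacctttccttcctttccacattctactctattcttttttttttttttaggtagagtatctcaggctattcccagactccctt
Gata4 at 40.3 kb, chr14:63231194-63231393: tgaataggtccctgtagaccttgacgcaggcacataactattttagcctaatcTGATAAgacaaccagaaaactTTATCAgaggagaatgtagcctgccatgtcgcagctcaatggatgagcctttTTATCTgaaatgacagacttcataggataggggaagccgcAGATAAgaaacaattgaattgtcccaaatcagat
Gata4 at -12.1 kb, chr14:63283552-63283751: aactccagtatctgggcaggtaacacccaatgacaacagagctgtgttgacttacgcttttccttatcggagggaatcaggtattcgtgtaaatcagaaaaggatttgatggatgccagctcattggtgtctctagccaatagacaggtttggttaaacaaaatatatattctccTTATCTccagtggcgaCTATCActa
Gata4 at -70.9 kb, chr14:63342420-63342619: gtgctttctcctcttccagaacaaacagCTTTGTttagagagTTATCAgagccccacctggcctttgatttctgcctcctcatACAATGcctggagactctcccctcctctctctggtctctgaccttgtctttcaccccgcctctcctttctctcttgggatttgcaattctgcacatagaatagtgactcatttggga

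The tall intron region at 40.3 kb held 4 GATA matches and 0 SOX matches in these 200 bases, and that at 49.8 kb held 3 and 1. The region at -12.1 kb held 2 and 0, and that at -70.9 kb held 1 and 2. The region at 93.6 kb within Fdft1, which had GATA6 in nEnd cells and SOX2 in NACL B9 alone and is not shown, held 0 and 1. Over all regions with GATA6 in both nEnd clones, merged from these lists alone, 87.6% of 19749 such 200-base stretches held a GATA match and 48.0% a SOX match, against 15 and 8 of the 16 at Gata4 and 16 and 7 of the 17 at Gata6. Matches of different GATA motifs can share bases and were counted apart, and no GATA motif contains a SOX motif. A match is a description of the letters and not of a bound site.

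SOX2 at Gata4 was found almost only in clone B9. NACL B9 held 5 peaks and 2iLIF B9 held 2, or 1.69 and 1.52 per 10000, while the 5 B12 libraries of naive and SOX2+ cells held 0, with limits between 1.46 and 3.66. The region at -70.9 kb had SOX2 in both of these B9 libraries, with maxima of 16 and 13, and GATA6 in nEnd. The 1 SOX2 peak of a DP library came from experiment A1 at 40.3 kb, over the tall GATA6 region, with a maximum of 7 at the 1.84th percentile of its list. The DP mean was 0.627 ± 1.09 (SD, n = 3) and that of the 7 other libraries 0.458 ± 0.784 (exact permutation p = 0.717). The difference of 0.169 was 0.0923 without the NACL B12 library, within clone B12 it was 0.627 (exact permutation p = 0.750), and without experiment A1 it turned to -0.458. No region of the Gata4 window had both factors in at least 2 DP libraries.

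**Figure D5:**
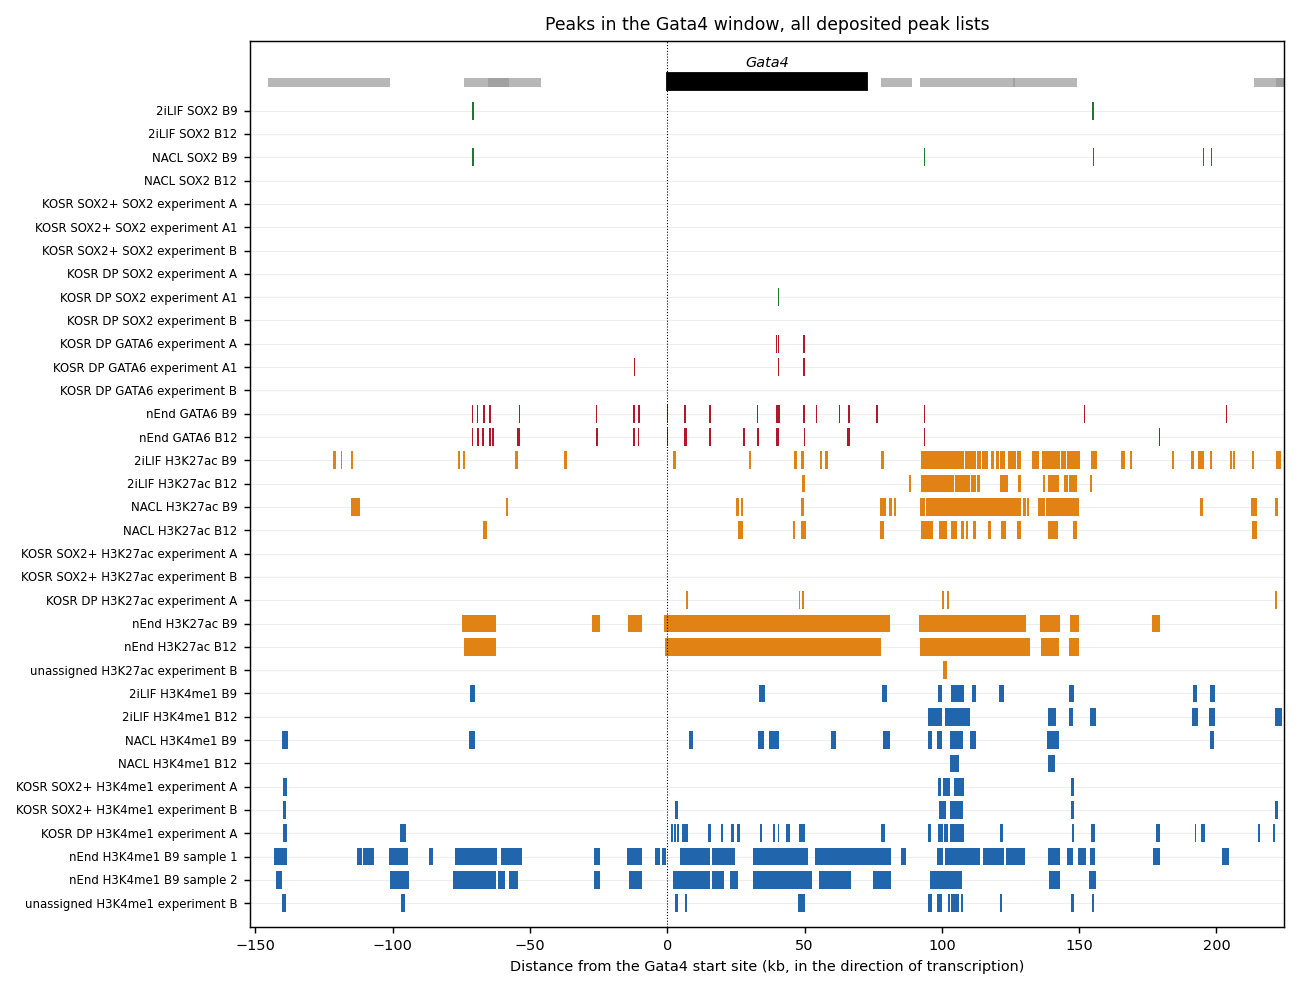
All peaks in the Gata4 window, drawn as for Gata6; grey bars are other protein-coding and long non-coding genes, among them Gm5463 and Gm49390 upstream and Neil2, Fdft1 and Ctsb from about 78 kb on. The nEnd H3K27ac rows show 1 domain over all of Gata4, the nEnd H3K4me1 rows cover 80.2% and 73.9% of the gene in several peaks, and both SOX2+ H3K27ac rows are empty.

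The whole of Gata4 lay in 1 H3K27ac domain in nEnd cells. It measured 82180 bases in B9 and 78579 in B12 and covered 100% of the gene body in both, where 2iLIF covered 8.18% and 1.87% and NACL 3.81% and 6.18%. Window cover relative to the genome was 8.29 in nEnd B9 and 5.87 in B12. In 2iLIF it was 1.50 in B9 and 0.456 in B12, and in NACL 1.18 and 0.514, so that B12 was lower than B9 in each population. Both nEnd values lay above the 4 naive values, with a difference of 6.17 at the 99.0th percentile of gene windows (exact permutation p = 0.133, the smallest possible). Within clone B9 the difference was 6.95 and within B12 it was 5.38. The upper limit of the ratio lay below the nEnd B9 value in all 4 naive libraries and below the nEnd B12 value in 2iLIF B12. In percent of the window, nEnd cells were at 41.7% and 37.7% and naive libraries at 19.8% or less. A second stretch of H3K27ac, from about 92 to 150 kb, lies over Fdft1, which makes squalene, and Ctsb, a lysosomal protease, and is shared by naive and nEnd cells: a nEnd domain of 40524 bases there was covered by 69.8% on average in 2iLIF and 67.9% in NACL.

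H3K4me1 cover of the Gata4 window was 7.41 and 10.6 in nEnd, where all libraries are B9. It was 1.76 in 2iLIF B9, 2.69 in NACL B9, 0.952 in 2iLIF B12 and 0.552 in NACL B12. The difference of 7.51 was among the largest of all windows (exact permutation p = 0.133, the smallest possible), and within clone B9 it was 6.78. The upstream domain in Gm5463 (chr14:63333944-63346366, 12423 bases) carried H3K27ac in both nEnd libraries and held 4 of the 16 GATA6 regions. DP and SOX2+ cells had no peak of either mark in it.

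In the sorted KOSR cells the marks covered the Gata4 window by at most 1.35 times the genome level. H3K27ac peaks were absent from both SOX2+ lists, with limits of 2.22 and 2.04 peaks per 10000, and numbered 6 in the DP list, with a cover of 0.436. This held for the neighbours too: the 40524-base domain at Fdft1 and Ctsb was covered by 0% in SOX2+ cells and by 3.74% in the DP library. H3K4me1 cover was 0.567 and 0.603 in SOX2+ cells and 1.35 in the DP library. None of these values exceeded those of naive B9. Among naive libraries of the same clone, B12, H3K4me1 was 0.952 and 0.552, so that the SOX2+ values lay between them and the DP value above both, while H3K27ac was 0.456 and 0.514, above the DP value. Relative to the cover within 20 Mb on each side, an alternative chosen after the values were seen, the DP library was at 1.68 for H3K27ac and 2.71 for H3K4me1 and SOX2+ cells at 1.50 and 1.38 for H3K4me1, all above their surroundings, and the naive B12 libraries were at 1.69 and 2.03 for H3K27ac and 1.66 and 3.12 for H3K4me1. Of the 16 nEnd GATA6 regions, 0 had H3K4me1 in SOX2+ cells, against 11.4% on chromosome 14 from 45 Mb. In the DP library 4 had it, against 38.1%, and in both nEnd libraries 13 had it, against 51.0%. H3K27ac was found at 12 in both nEnd libraries, against 43.8%. Of the 16, 13 had no H3K4me1 in any 2iLIF, NACL or SOX2+ library, against 65.6% on chromosome 14 from 45 Mb. Among the 3 regions that GATA6 held in DP cells, the one at 49.8 kb had H3K27ac in the DP library, and it had it in both libraries of 2iLIF and of NACL as well.

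The loci differed from each other in these counts. In DP cells the Gata6 window stood at the 93.6th percentile of gene windows for H3K27ac cover and the 92.6th for H3K4me1, and the Gata4 window at the 23.9th and 41.8th. In nEnd cells both windows stood at or above the 83.5th percentile in every library. The difference between the loci in DP cells rests on 1 library per mark, and the clone pattern on chromosome 14 moves with it.

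Other windows of the family and the lineage were described by the same measures, over lists chosen with earlier results known. H3K27ac cover was above naive in both nEnd libraries at Gata1, Gata2 and Gata5. The nEnd means there were 3.11, 2.58 and 4.04, below those of Gata6 and Gata4 (4.92 and 7.08), and the naive libraries ranged from 0.800 to 1.18, 1.36 to 1.77 and 1.06 to 1.42. At Gata3, a trophoblast regulator, the mean was 0.662 in nEnd and 1.82 in naive cells. Of 20 endoderm gene windows, 19 had higher H3K27ac cover and 18 higher H3K4me1 cover in both nEnd libraries than in all naive ones, with median differences of 3.40 and 4.14 against 0.414 and 0.0273 over all windows. Sox17, an endoderm transcription factor, went from 1.13 to 3.93 in H3K27ac and from 0.559 to 5.15 in H3K4me1 between the naive and nEnd means, and Pdgfra, a receptor of the primitive endoderm, from 0.967 to 5.19 and from 0.819 to 4.60. Of 12 pluripotency windows, 5 were higher and 4 lower in H3K27ac, and 0 higher and 4 lower in H3K4me1, where 48.1% and 24.2% of all windows were higher and 6435 of 21465 and 3715 of 20626 were lower. Sox2 went from 2.22 to 0 in H3K27ac and from 5.95 to 0.389 in H3K4me1, while Nanog, a pluripotency factor, was at 2.67 in naive cells and 1.43 higher in nEnd in H3K27ac, and at 5.41 and 6.08 in H3K4me1. For GATA6 peaks, 3 of the 20 endoderm windows were higher in every DP library than in nEnd and 9 lower, and 4 of the 12 pluripotency windows were higher and 2 lower, against 9.30% higher and 40.2% lower over all windows.

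The windows most like each locus over the 33 assigned libraries, by Pearson correlation of the cover percentile among gene windows, were given as a description with libraries that share clone and depth. For Gata6 they were Hpse (r = 0.838), Mrps18c, Chd3, Helq and Coq2 (r = 0.814), of which all but Chd3 are neighbours on chromosome 5. For Gata4 they were Ajuba (r = 0.873), 4931414P19Rik, Fndc3a, Acin1 and Psmb11 (r = 0.850), all on chromosome 14 beyond 45 Mb. Gata6 and Gata4 correlated with each other at 0.586.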

How the data were processed

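CUT&RUN was done with in-house MNase, on cells kept for at least 4 passages in each medium and then sorted. Reads were trimmed with cutadapt 1.18, aligned with Bowtie2 2.3.4.1 to GRCm38/mm10 and processed with SAMtools 1.9, Picard 2.9.1, bedtools 2.27.1 and deepTools 3.2.0, per the submitters' processing notes in the labels. The authors called peaks with SEACR per library against IgG. Each deposited list gives a peak's position, total signal, maximum signal and the place of that maximum, on which the sequences were centred. The methods and the list names disagree on which lists used the relaxed threshold, and read depth is unknown. IgG samples were not analysed here.

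Peaks were counted in windows of 150 kb around gene bodies (GENCODE M21) with Python 3.11.15, numpy 2.4.6, pandas 2.3.3, SciPy 1.17.1 and pysam 0.24.0. Groups were compared with exact permutation tests, two-sided, at 0.05, after a test of the code on simulated counts. The background counts gene windows or regions whose libraries do not overlap or that hold a peak. Clones pair nEnd with naive H3K27ac libraries, since a clone is the same cell line: deviations of same-clone libraries from their group means correlated at 0.148 with 2iLIF and 0.0727 with NACL over 21911 windows. Alternatives were a 50 kb flank, the stronger 50% of peaks, equal numbers of peaks, other units and overlaps, and each library left out. The loci, gene lists, marker lists and motifs were chosen with earlier results of these data known. Named genes were both loci, the GATA family, genes with a start site in a window, the first genes of each list and the 5 windows most like each locus.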

Additional observations from a re-analysis of the deposited data

Results flagged for a closer look

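The 2 KOSR libraries of experiment B whose title and source name give different populations entered no comparison, and 3 of their 4 peak counts at the loci were above the 3 peaks that a count of 0 allows. In the Gata6 window the H3K27ac library held 7 peaks and the H3K4me1 library 36, with a cover relative to the genome of 3.73 and 4.05. For comparison, SOX2+ cells were at 0.943 and 1.21 for H3K27ac and 2.26 and 2.55 for H3K4me1, and the DP library was at 4.75 and 4.14. In the Gata4 window the H3K4me1 library held 13 peaks, with a cover of 0.791, and the H3K27ac library held 1. Of the 17 nEnd GATA6 regions at Gata6, 5 had H3K27ac and 11 had H3K4me1 in these libraries, against 14.2% and 42.7% of such regions in the genome. Which population they hold was not tested.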

How the results depend on the processing

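Of 180 alternative values for 14 results, 154 kept the direction and their side of the threshold, or a count within 1.5 times. With equal numbers of the strongest peaks, the SOX2 differences at Gata6 (DP minus 2iLIF, NACL and SOX2+, and DP minus SOX2+) and at Gata4 fell to 0, since no SOX2 peak at the loci is among the strongest 1378 of its list, and the GATA6 difference at Gata6 turned to -10.8. That GATA6 difference was also -0.256 as cover, -315 relative to 20 Mb on each side and -0.607 within clone B12, and the GATA6 difference at Gata4 turned to 122 relative to 20 Mb. The 20 Mb background and the single clones were chosen after the data were seen. With the stronger 50% of peaks both SOX2 differences at Gata4 were 0. The count of shared SOX2 and GATA6 regions at Gata6, 1, became 0 with the stronger 50% or equal numbers of peaks and 2 with a peak in any library; at Gata4 it was 1 with a peak in any library, against 0. The count of nEnd GATA6 regions at Gata6 with H3K4me1 in SOX2+ cells, 6, became 2 with the stronger 50% of peaks, 0 with equal numbers and 16 with a peak in any library, which is of 30 regions with GATA6 in any nEnd library; of the 17 regions, 10 had H3K4me1 in any SOX2+ library.

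Leaving out each library in turn gave -0.607 to 1.60 for the GATA6 difference at Gata6 and 0 to 1 for the shared regions at Gata6 (0 without DP SOX2 of experiment A or of A1). For the count with H3K4me1 it gave 6 to 11. The 10 without SOX2+ H3K4me1 of experiment A is of the same 17 regions. The 11 without nEnd GATA6 B9 is of the 30 regions with GATA6 in nEnd B12. The SOX2 differences at Gata4 were -0.458 to 0.482 and 0 to 0.940, the lowest values being without experiment A1. The SOX2 difference at Gata6 was 1.38 to 4.20, lowest without DP experiment A1 and highest without B, and against SOX2+ cells it was 1.18 without A1. The GATA6 difference at Gata4 was -5.91 without DP experiment A1 and -1.99 without B.

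With the experiment as a replicate block, the SOX2 difference between DP and SOX2+ cells was 2.38 at Gata6 (exact p = 0.500) and 0.627 at Gata4 (exact p = 1). With the clone as a replicate block, the H3K27ac difference was 3.70 at Gata6 and 6.17 at Gata4 (exact p = 0.222 for both, the smallest possible). Neither block could change a call, since neither design can reach 0.05. Deviations of DP and SOX2+ libraries of 1 experiment correlated at 0.0669 for A, 0.0789 for A1 and 0.151 for B, and DP A correlated with SOX2+ A1 at 0.0739. DP B correlated with SOX2+ A and A1 at -0.0793 and -0.0954, so that B correlated best with its own experiment and A did not. Not every pair passed 0.1, and the experiment was not taken as a pairing. The small DP lists limit the depth: at 1378 and 1391 peaks 1 peak is worth more than 7 per 10000, and designs of 2 against 4 or 3 against 2 libraries cannot reach 0.05.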
